A study of Mus musculus with 6 samples.

Results

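Neutrophil secondary granule and S100 genes were described here across the 6 RNA-seq libraries of the study: S100a8, S100a9, Ngp, Camp, Ltf, Lcn2, Cd177, Mmp8, Retnlg and Chil3, which are 10 of the 54532 genes in the deposited tables. The 10 genes had been picked from measured values, for their higher level in the macrophage libraries of leukemic mice. The comparisons of MA9 with WT macrophages and of MA9/FE with WT/FE macrophages are therefore given as a description, and nothing is supported with them. All libraries came from C57BL/6 mice, which the methods give as 6 to 8 weeks old. WT mice were healthy, and MA9 mice carried acute myeloid leukemia (AML) from transplanted bone marrow (BM) cells that expressed the MLL-AF9 fusion and GFP from a retrovirus. FE mice received iron dextran and the others received PBS. For MA9/FE mice the methods give 6 intraperitoneal injections of 0.2 mL at 25 mg/mL, every other day from 1 week after transplantation. WT and WT/FE mice had no transplantation and received an equal volume intraperitoneally, with no timing stated. The 4 macrophage libraries were WT, WT/FE, MA9 and MA9/FE, and the 2 leukemia cell libraries were MA9 and MA9/FE. Each condition had 1 library, so no difference below has a replicate check, no p-value is given, and the number of mice behind a library was not given in the sources used here. The labels place the macrophages in the spleen and the leukemia cells in the BM, whereas the methods describe macrophages sorted from BM as GFP- cells with low Gr-1, F4/80+ and intermediate CD115.

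Neutrophils build their granules in order while they mature. Azurophil granules with myeloperoxidase and elastase come first, at the promyelocyte stage, secondary (specific) granules with lactoferrin and cathelicidin follow at the myelocyte stage, and tertiary granules with gelatinase come last. The transcription factor C/EBP epsilon is needed for expression of the secondary granule genes. S100a8 and S100a9 encode the 2 chains of calprotectin, a calcium-, zinc- and manganese-binding protein that fills the neutrophil cytosol and is also made by monocytes. Among the granule proteins, lactoferrin (Ltf) binds iron and lipocalin 2 (Lcn2) binds bacterial siderophores, the molecules with which bacteria take up iron.

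The 10 genes lie on 5 chromosomes in the mouse build GRCm38. S100a8 (chr3:90668978-90670035, plus strand) and S100a9 (chr3:90692632-90695721, minus strand) are 22596 bases apart, and Chil3 (chr3:106147554-106167564, minus strand) is on the same chromosome. Camp (chr9:109847379-109849617, minus strand), Ngp (chr9:110419747-110423012, plus strand) and Ltf (chr9:111019271-111042767, plus strand) follow each other on chromosome 9, with 570129 bases between Camp and Ngp and 596258 between Ngp and Ltf. Mmp8 (chr9:7558456-7568485, plus strand) is far from them. Lcn2 is at chr2:32384633-32388252 (minus strand), Cd177 at chr7:24743983-24760311 (minus strand) and Retnlg at chr16:48872621-48874496 (plus strand). All are protein-coding, and no other gene in the tables overlaps any of them. Most neighbouring genes did not share the difference between MA9 and WT macrophages. Between Camp and Ltf, a span of 1195389 bases with 31 protein-coding genes, 17 other genes had at least 10 reads in MA9 or WT macrophages, and of these only Prss50, named after its value was seen, was 2-fold or more higher in MA9, with a log2 fold change of 1.33. Within 250 kb of S100a8 and S100a9, 0 of 8 other such genes were 2-fold higher or lower.

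Start-site sequences are shown for Ltf, Ngp, Mmp8, S100a9 and S100a8. Letters of the C/EBP half-site pair TTNNGCAA, read on both strands, are in capitals. Of the 10 RefSeq windows, which run from 250 bases before to 50 after the gene start, 6 held a match, against 10.8% of 32851 windows of the same length over all genes. The first match lay 75 bases before the RefSeq start in Ltf, 138 in Ngp, 19 in Mmp8, 236 in S100a9, 216 in Lcn2 and 246 in Retnlg. Ngp had another 11 bases before its start. No match was held by S100a8, Camp, Cd177 and Chil3, of which only S100a8 is shown. The core GAGGAA of PU.1, another factor of the myeloid lineage, read on both strands, was found in 5 of the 10 windows (S100a8, Ltf, Lcn2, Cd177 and Mmp8) and in 28.3% of all windows, and the 2 motifs share no letters at any site listed. A match is a run of letters and not a measured binding site. The stretches below come from RefSeq, build GRCm38.p6, cut to the bases before the annotated gene, each 5′ to 3′ along its gene: Ltf chr9:111019042-111019270 (plus), Ngp chr9:110419558-110419746 (plus), Mmp8 chr9:7558179-7558428 (plus), S100a9 chr3:90695722-90695971 (minus), and, with no match in this window, S100a8 chr3:90668821-90668977 (plus).
Ltf: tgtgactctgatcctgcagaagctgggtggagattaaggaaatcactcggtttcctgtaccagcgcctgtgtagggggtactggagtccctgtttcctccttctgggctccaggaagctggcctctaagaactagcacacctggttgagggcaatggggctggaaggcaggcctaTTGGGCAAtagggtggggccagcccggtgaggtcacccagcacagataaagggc
Ngp: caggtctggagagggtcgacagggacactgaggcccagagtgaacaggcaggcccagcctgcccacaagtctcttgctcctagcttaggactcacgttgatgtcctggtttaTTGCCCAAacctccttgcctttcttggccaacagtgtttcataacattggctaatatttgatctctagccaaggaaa
Mmp8: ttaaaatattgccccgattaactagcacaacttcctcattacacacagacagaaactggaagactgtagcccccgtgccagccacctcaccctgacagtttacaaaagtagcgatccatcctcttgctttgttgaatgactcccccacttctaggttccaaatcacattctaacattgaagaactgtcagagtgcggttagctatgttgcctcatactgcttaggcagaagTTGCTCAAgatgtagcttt
S100a9: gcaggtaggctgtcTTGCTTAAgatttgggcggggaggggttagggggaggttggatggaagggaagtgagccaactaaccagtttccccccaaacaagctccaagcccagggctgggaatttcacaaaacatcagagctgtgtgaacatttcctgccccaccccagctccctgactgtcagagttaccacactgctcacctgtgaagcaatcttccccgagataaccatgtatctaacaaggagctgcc
S100a8: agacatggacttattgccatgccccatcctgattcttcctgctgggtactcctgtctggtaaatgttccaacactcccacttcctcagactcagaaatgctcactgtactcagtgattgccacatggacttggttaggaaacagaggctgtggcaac

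Depth was similar between libraries. Reads recovered from the FPKM values (fragments per kilobase of exon, scaled to library depth) came to 16085348 to 19518360 per library, and 96.81% to 97.01% of the values above 0 gave whole reads within 0.05 reads. The macrophage label was checked with 17 markers, all at 1 FPKM or more in each macrophage library, with summed levels, from WT and WT/FE to MA9 and MA9/FE, of 570, 961, 547 and 1206 FPKM. All 12 B cell markers were also at 1 FPKM or more in each, with sums of 2436, 2290, 1380 and 2369 FPKM in the same order, so the B cell sum exceeded the macrophage sum in each library. In the leukemia libraries, 12 of the 17 macrophage markers were also at 1 FPKM or more, summing to 251 and 261 FPKM. This threshold alone therefore does not set the macrophage libraries apart. Of 11 MLL-AF9 target genes, 10 were at 1 FPKM or more in the leukemia libraries, summing to 266 and 284 FPKM, against 44.1 to 55.6 FPKM in the macrophage libraries.

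The granule and S100 genes were almost absent from macrophages of healthy mice and reached up to 646 FPKM, for S100a9, in macrophages of leukemic mice (plot of the levels by library). The 10 genes together took 81 reads, 0.000415% of the WT macrophage library (95% Wilson interval 0.000334 to 0.000516), and 80 reads, 0.000476% (0.000383 to 0.000593), of the WT/FE library. The share was 0.185% (0.183 to 0.187) in MA9 and 0.0906% (0.0892 to 0.0921) in MA9/FE macrophages. In the leukemia cells it was 0.267% (0.265 to 0.270) in MA9 and 0.222% (0.220 to 0.224) in MA9/FE. These intervals, and all others here, cover counting error only. In libraries from many cells, fewer cells of a type and less RNA per cell cannot be told apart.

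**Figure D1:**
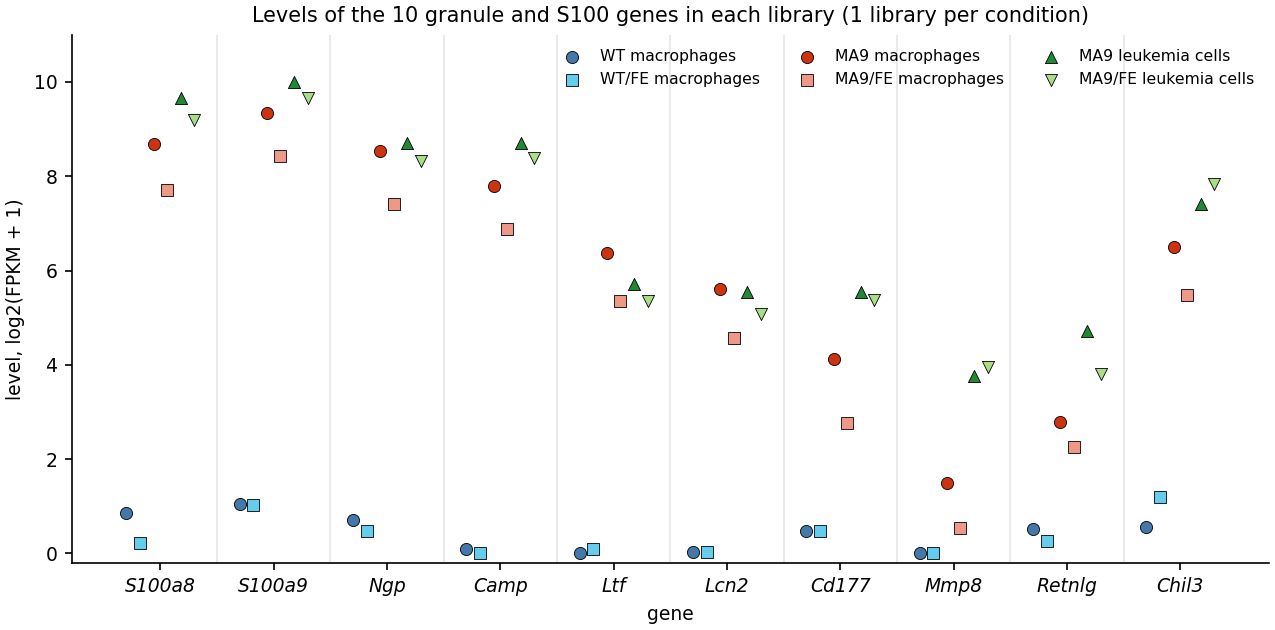
Level of each of the 10 genes, log2(FPKM + 1) on the vertical axis, in each of the 6 libraries; 1 point is 1 library. For every gene the WT and WT/FE macrophage points lie below the MA9 and MA9/FE macrophage points, which is the difference the genes were picked for. The MA9/FE macrophage point also lies below the MA9 macrophage point for every gene.

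In what follows, macrophage values are in the order WT, WT/FE, MA9, MA9/FE, and leukemia cell values are in the order MA9, MA9/FE. S100a8 and S100a9 had the highest levels of the 10 genes in every library but WT/FE macrophages, where Chil3 came first. The 4 macrophage values of S100a8 were 0.812 FPKM (11 reads), 0.172 FPKM (2 reads), 411 FPKM and 209 FPKM, and its leukemia cell values were 805 FPKM and 582 FPKM. For S100a9 they were 1.08 FPKM (11 reads), 1.03 FPKM (9 reads), 646 FPKM and 342 FPKM, beside 1029 FPKM and 805 FPKM. Both genes were highest in the leukemia cells, and their difference between macrophages of healthy and leukemic mice is the one they were picked for. Where both were high, S100a8 stayed below S100a9, with an S100a8 to S100a9 ratio of FPKM of 0.635 (0.611 to 0.660) in MA9 macrophages, 0.611 (0.578 to 0.646) in MA9/FE macrophages, 0.782 (0.761 to 0.804) in MA9 and 0.723 (0.700 to 0.747) in MA9/FE leukemia cells. The intervals of the macrophage ratios do not overlap those of the leukemia cells, in which S100a8 was the more abundant relative to its partner. In macrophages of healthy mice the ratio rested on few reads and was 0.752 (0.296 to 1.91) in WT and 0.167 (0.0176 to 0.808) in WT/FE.

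The cathelicidin family genes came next. Ngp, which encodes neutrophilic granule protein, had macrophage values of 0.629 FPKM (15 reads), 0.390 FPKM (8 reads), 372 FPKM and 169 FPKM, and leukemia cell values of 418 FPKM and 320 FPKM. Camp, the precursor of the mouse cathelicidin antimicrobial peptide, had 1 read, 0 reads, 220 FPKM and 117 FPKM, beside 415 FPKM and 331 FPKM in the leukemia cells. Ngp in MA9 macrophages was thus close to its level in MA9 leukemia cells, whereas Camp was not.

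Transcripts of the iron-handling granule proteins were at least as high in MA9 macrophages as in MA9 leukemia cells. Ltf had 0 reads, 4 reads, 82.2 FPKM and 39.8 FPKM in macrophages, against 51.8 FPKM and 40.1 FPKM in leukemia cells. Lcn2 had 1 read in each library of healthy mice and then 47.8 FPKM and 22.6 FPKM, against 45.7 FPKM and 32.5 FPKM. They were the only 2 of the 10 genes whose FPKM in MA9 macrophages exceeded that in MA9 leukemia cells.

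The other members were at lower levels or uneven. Cd177, a surface glycoprotein of neutrophils, had macrophage values of 0.397 FPKM (22 reads), 0.398 FPKM (19 reads), 16.4 FPKM and 5.78 FPKM, against 45.6 FPKM and 40.7 FPKM in leukemia cells. Mmp8, neutrophil collagenase, had 0 reads in both libraries of healthy mice, then 1.82 FPKM (75 reads) and 0.462 FPKM (18 reads), against 12.6 FPKM and 14.5 FPKM. Retnlg, a resistin-like secreted protein, had 0.432 FPKM (5 reads), 0.201 FPKM (2 reads), 5.85 FPKM (59 reads) and 3.77 FPKM (36 reads), against 25.4 FPKM and 13.04 FPKM. Mmp8 was the lowest of the 10 genes in both macrophage libraries of leukemic mice. Chil3, the chitinase-like protein Ym1 that alternatively activated macrophages and monocytes also make, had 0.471 FPKM (15 reads), 1.28 FPKM (35 reads), 88.9 FPKM and 43.4 FPKM, against 170 FPKM and 226 FPKM, and was thus highest in the leukemia cells with iron. Its close paralog Chil4 had 1 read in WT macrophages and 0 in the other 5 libraries, although how reads shared between such paralogs were counted is not known.

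From high to low the order was S100a9, S100a8, Ngp, Camp, Chil3, Ltf, Lcn2, Cd177, Retnlg and Mmp8, and it was identical in MA9 macrophages, MA9/FE macrophages and MA9 leukemia cells. In MA9/FE leukemia cells Camp passed Ngp, Cd177 passed Ltf and Lcn2, and Mmp8 passed Retnlg. With 1 library per condition the spread between samples is unknown, so whether neighbours in this order differ, such as Chil3 and Ltf at 88.9 and 82.2 FPKM in MA9 macrophages, could not be tested. Over the 45 pairs of the 10 genes, Pearson r of log2(FPKM + 1) across the 6 libraries was 0.671 to 0.9995, with a median of 0.956. With the mean of the 10, r was lowest for Mmp8 (0.818) and 0.9496 to 0.9985 for the rest. These r values describe 6 libraries that fall into low and high ones, and the genes were picked for that difference.

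In MA9 against WT macrophages, the contrast that chose the genes, all 10 passed the minimum of 10 reads and all 10 were 2-fold or more higher on log2(FPKM + 1), with the libraries scaled to each other by TMM factors (trimmed means of log ratios), where 3.79% of 16926 genes were higher and 0.910% were lower. The median log2 fold change of the 10 was 6.16 (1.4996 for Mmp8 to 8.29 for S100a9), and that of all genes was -0.003. On the scale of scaled reads, S100a9 was 604 times higher (337 to 1211), S100a8 510 times (285 to 1023), Ngp 597 times (362 to 1067), Chil3 190 times (115 to 341), Cd177 41.8 times (27.4 to 67.1) and Retnlg 13.7 times (5.54 to 43.7). Set against the limit that 0 reads allows, 3 reads in the library, Ltf was 1863-fold higher and Mmp8 29.0-fold higher. The counting error of the MA9 reads is not included in these values. Camp and Lcn2, with 1 read each in WT, gave ratios of 3285 (589 to 129800) and 2468 (442 to 97530). In MA9/FE against WT/FE macrophages, 9 of the 10 genes, all with at least 10 reads, were 2-fold or more higher, beside 2.93% of 16571 genes higher and 1.64% lower. The median there was 4.90, against 0.01 over all genes. Mmp8, the only one below the threshold, with 18 against 0 reads, was at 0.55 on the log2(FPKM + 1) scale, which understates low genes. By reads, Mmp8 was 6.36-fold higher when set against 3 reads in WT/FE, again without the counting error of its own reads. Retnlg, the lowest inside it, was at 2.0015.

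**Figure D2:**
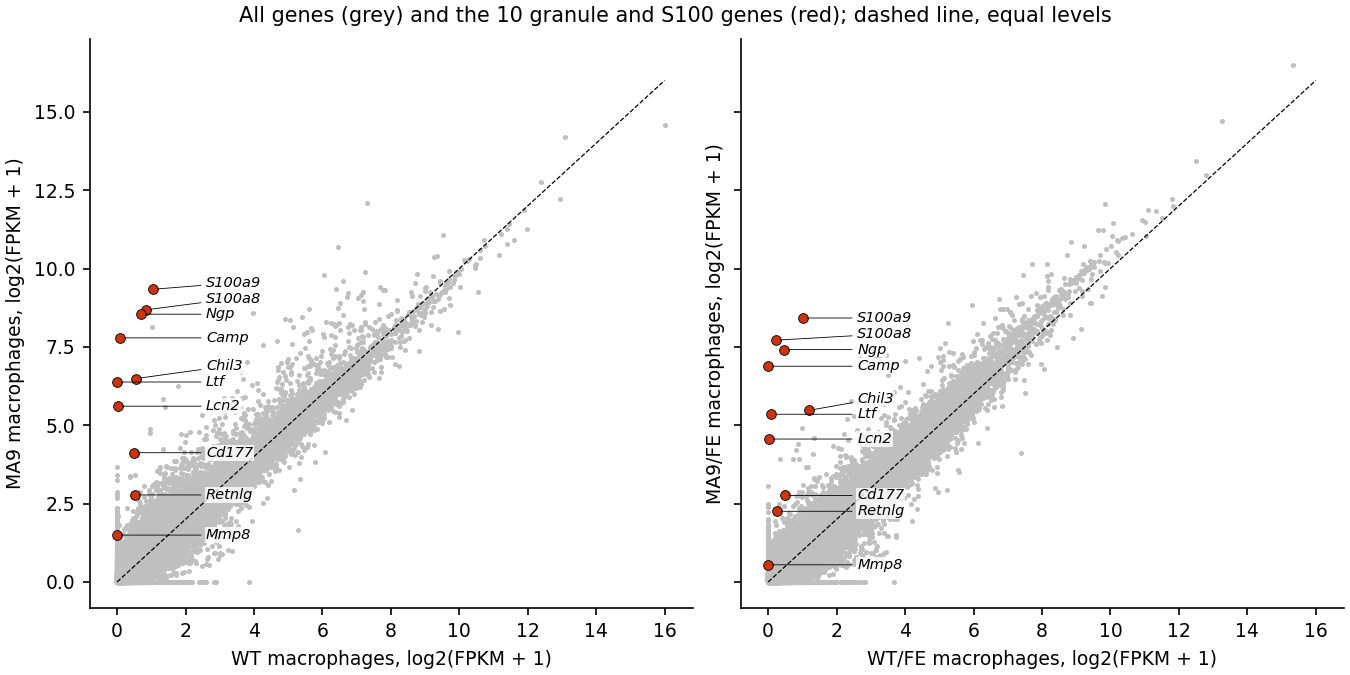
Each grey point is 1 gene, log2(FPKM + 1) in WT or WT/FE macrophages on the horizontal axis and in MA9 or MA9/FE macrophages on the vertical axis; red points are the 10 genes and the dashed line marks equal levels. All 10 lie above the line in both panels, and Mmp8 lies nearest to it, at log2 fold changes of 1.4996 and 0.55.

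Other granule and neutrophil genes went with them in part. Of 16 other secondary and tertiary granule genes, all with at least 10 reads, 6 were 2-fold or more higher in MA9 than in WT macrophages and 0 lower, with a median log2 fold change of 0.46. Fcnb (ficolin-1) went from 0 to 8.61 FPKM, Olfm4 (olfactomedin 4), from 0 to 4.17, and Hp (haptoglobin), from 2.68 to 25.4, whereas Slpi, a protease inhibitor, was already at 36.8 FPKM in WT and reached 140 in MA9. Of the azurophil granule genes, 8 of 10 passed the minimum and 5 were higher, with a median of 3.03. The protease Elane stood at 1.51 FPKM in WT and 56.8 in MA9, Mpo (myeloperoxidase) at 1.63 and 47.1, and the proteases Ctsg at 0.942 and 28.1 and Prtn3 at 0.947 and 26.1. Of the mature neutrophil genes, 20 of 22 passed and 9 were higher, with a median of 0.92. Among them Wfdc21 stood at 2.95 FPKM in WT and 21.1 in MA9, and Clec4e, a C-type lectin, at 0.464 and 3.34. Ly6g, the antigen that defines mouse neutrophils and part of what Gr-1 antibodies bind, had 0 reads in either macrophage library of healthy mice, and 27 and 30 reads in those of leukemic mice without and with iron. In MA9/FE against WT/FE macrophages, 4 of 14 other secondary and tertiary granule genes, 5 of 8 azurophil genes and 2 of 19 mature neutrophil genes were higher and 0 were lower, with medians of 0.54, 2.22 and 0.27.

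Of 10 granulocyte transcription factors, 1 was 2-fold or more higher and 0 lower in MA9 than in WT macrophages. This was Cebpe, the gene of C/EBP epsilon, with macrophage values of 0.289, 0.240, 9.34 and 4.66 FPKM and leukemia cell values of 78.5 and 56.5 FPKM, so that it was low and high in the same libraries as the 10 genes. Cebpb, a related factor also active in macrophages, was at 24.6 FPKM in WT and 47.2 in MA9 macrophages. None of 6 other S100 genes that passed was 2-fold higher or lower, with a median log2 fold change of -0.22. S100a6 stood at 53.2 FPKM in WT and 33.6 in MA9, and S100a11 at 302 and 222. Of receptors for the encoded proteins, 1 of 11 was higher, the formyl peptide receptor Fpr2, also on the mature neutrophil list, at 2.09 and 7.53 FPKM. Of the other resistin and chitinase-like genes, 1 of 3 was higher, Chil1, at 0.0365 and 2.52 FPKM.

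Markers of other cells that moved with the 10 genes are given as measured, and their part in the result was not tested. In MA9 against WT macrophages, 8 of 12 myeloid progenitor markers were 2-fold or more higher (median log2 fold change 1.31), and the summed level of that list was 93.9 and 90.2 FPKM in macrophages of healthy mice and 255 and 166 FPKM in those of leukemic mice, each without and with iron. Of these 12 markers, 6 are also azurophil granule genes. Of 10 erythroid markers 9 were higher (median 1.72), and their sum in the same order was 112, 221, 355 and 557 FPKM. Of 12 monocyte markers 1 was higher, Ly6c2, at 10.3 and 66.6 FPKM (median 0.08). Of 10 MLL-AF9 target genes that passed, Myb was higher, at 5.64 and 14.04 FPKM, and Hoxa5 was lower, at 3.27 and 1.003 (median 0.07). Of 17 macrophage markers 0 were 2-fold higher or lower (median -0.08). Of 12 B cell markers 1, Fcer2a, was lower, at 115 and 43.7 FPKM (median -0.64), and of 10 T cell markers 1, Cd8b1, was higher, at 2.38 and 5.99 FPKM (median -0.02). In MA9/FE against WT/FE macrophages, 6 of 12 myeloid progenitor markers (median 1.12), 9 of 10 erythroid markers (median 1.41), 4 of 10 T cell markers (median 0.50) and 1 of 12 monocyte markers (median 0.21) were higher and 0 lower. Of the macrophage, B cell and MLL-AF9 target lists 0 genes were 2-fold higher or lower there, with medians of 0.00, -0.21 and 0.18.

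Macrophages of leukemic mice were also set against the leukemia cells of the same condition. These comparisons differ in cell type and, by the labels, in organ, and the 2 cannot be told apart. In MA9 leukemia cells against MA9 macrophages, 3 of the 10 genes (Cd177, Mmp8 and Retnlg) were 2-fold or more higher and 0 lower, beside 7.34% of 17044 genes higher and 12.6% lower. The median log2 fold change was 0.89, from -0.69 for Ltf to 2.24 for Mmp8, against -0.01 over all genes. In MA9/FE leukemia cells against MA9/FE macrophages, 7 of the 10 were higher and 0 lower, beside 9.61% of 16842 genes higher and 13.2% lower. The median there was 1.46, from -0.02 for Ltf to 3.39 for Mmp8, against -0.03 over all genes. The 3 that did not reach 2-fold were Ngp at 0.89, Lcn2 at 0.48 and Ltf. Both comparisons use the macrophage libraries on which the genes were picked.

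As a percent of the FPKM in MA9 leukemia cells, the 10 genes in MA9 macrophages had a median of 52.7%, with Mmp8 lowest at 14.5% and Ltf highest at 159%. The 8 azurophil genes at 10 FPKM or more in the leukemia cells had a median of 5.37%, from 2.58% for Ctsg to 172% for Ctsc, a protease that macrophages also make. For 8 MLL-AF9 target genes the median was 4.58%, for 12 other secondary and tertiary granule genes 33.4% and for 10 mature neutrophil genes 28.1%. The lists overlapped in range. In MA9/FE macrophages the median was 35.6% for the 10 genes (3.19% for Mmp8 to 99.3% for Ltf), 3.07% for azurophil genes, 5.50% for MLL-AF9 target genes, 33.1% for other secondary and tertiary granule genes and 23.8% for mature neutrophil genes. The lists share libraries, their members were chosen with results of these data known, and no test of a difference between lists was made.

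**Figure D3:**
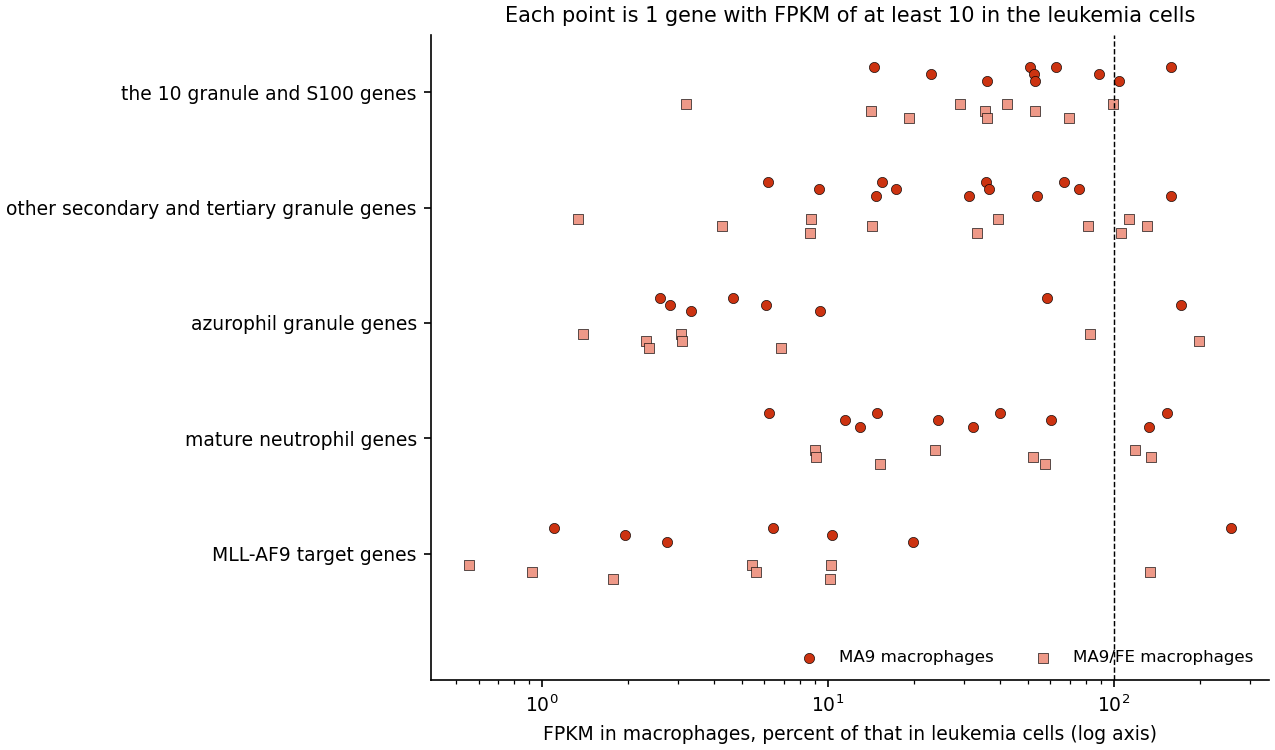
FPKM in MA9 (circles) and MA9/FE macrophages (squares) as a percent of the FPKM in leukemia cells of the same condition, on a log axis, for genes of 5 lists with at least 10 FPKM in the leukemia cells; the dashed line marks 100%, and 2 values from 3 reads or fewer are not drawn. The 10 granule and S100 genes have a median of 52.7% in MA9 macrophages, and azurophil granule genes have a median of 5.37%.

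All 10 genes had lower measured levels in the MA9/FE than in the MA9 macrophage library, for all but Retnlg beyond counting error. In MA9/FE against MA9 macrophages, all 10 passed the minimum of reads and all 10 had a log2 fold change below 0, 3 of them (Ngp, Lcn2 and Cd177) by 2-fold or more, beside 1.26% of 16512 genes lower and 1.20% higher. The median was -0.96, from -1.33 for Cd177 to -0.49 for Retnlg, against 0.01 over all genes. The share of all genes below 0 was not counted here. By reads the ratio of MA9/FE to MA9 was 0.522 (0.497 to 0.548) for S100a8, 0.542 (0.518 to 0.567) for S100a9, 0.467 (0.448 to 0.486) for Ngp and 0.545 (0.511 to 0.581) for Camp. It was 0.497 (0.472 to 0.522) for Ltf, 0.485 (0.449 to 0.524) for Lcn2 and 0.501 (0.467 to 0.538) for Chil3. These 7 ratios lay close together, while Cd177 at 0.360 (0.312 to 0.415) and Mmp8 at 0.260 (0.146 to 0.440) were lower. Retnlg, at 0.661 (0.424 to 1.02), could not be told from no difference at this depth. With the deposited FPKM unscaled, 5 rather than 3 genes were lower by 2-fold or more. The MA9 macrophage library is also one of those whose high values chose the genes, and what that choice adds to the difference was not tested.

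Other lists moved between the same 2 libraries. Of 17 macrophage markers 8 were 2-fold or more higher in MA9/FE than in MA9 macrophages and 0 lower, with a median log2 fold change of 0.96, and the red-pulp factor Spic went from 14.7 to 31.8 FPKM. The B cell markers had a median of 0.57, with Cd79b going from 292 to 618 FPKM. Of 8 azurophil genes 0 were 2-fold higher or lower, with a median of -0.57. Mpo at -0.97, Elane at -0.89, Ctsg at -0.74 and Prtn3 at -0.50 were lower, as most of the 10 genes were. Ctsc at 0.51 and Srgn at 0.39 were higher. Of 16 other secondary and tertiary granule genes 2 were lower and 0 higher, with a median of -0.30. Of 12 myeloid progenitor markers 0 were 2-fold higher or lower, with a median of -0.51. Of 10 erythroid markers 3 were higher and 1 lower, with a median of 0.30, and of 10 T cell markers 1 was higher and 0 lower, with a median of 0.42. Of 20 mature neutrophil genes 1 was 2-fold or more higher and 2 were lower, with a median of -0.29. Ly6g, from that list, was at 1.69 and 1.98 FPKM, on 27 and 30 reads. Cebpe had a log2 fold change of -0.84. The part of these markers in the lower levels of the 10 genes was not tested.

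In leukemia cells, 8 of the 10 genes were lower with the same treatment and 2, Mmp8 and Chil3, were higher. In MA9/FE against MA9 leukemia cells, libraries on which the genes were not picked, 0 of the 10 were 2-fold higher or lower, beside 0.435% of 15415 genes higher and 0.428% lower. The median log2 fold change was -0.36, from -0.91 for Retnlg to 0.41 for Chil3, against 0.00 over all genes. The share of all genes below 0 was not counted, so the 8 of 10 has no such share beside it. By reads, S100a8, S100a9, Ngp, Camp, Ltf and Lcn2 had ratios of 0.711 to 0.798, and Cd177 had 0.893 (0.841 to 0.948). Retnlg had 0.512 (0.414 to 0.630), whereas Mmp8 at 1.15 (1.02 to 1.29) and Chil3 at 1.33 (1.29 to 1.38) were higher with iron. Between the same 2 libraries, 5 of 10 erythroid markers were 2-fold or more lower and 0 higher (median log2 fold change -0.85), 1 of 12 monocyte markers was higher (median 0.36), and 0 genes of the granule, neutrophil, progenitor and macrophage lists were 2-fold higher or lower. Their part in the values of the 10 genes was not tested.

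**Figure D4:**
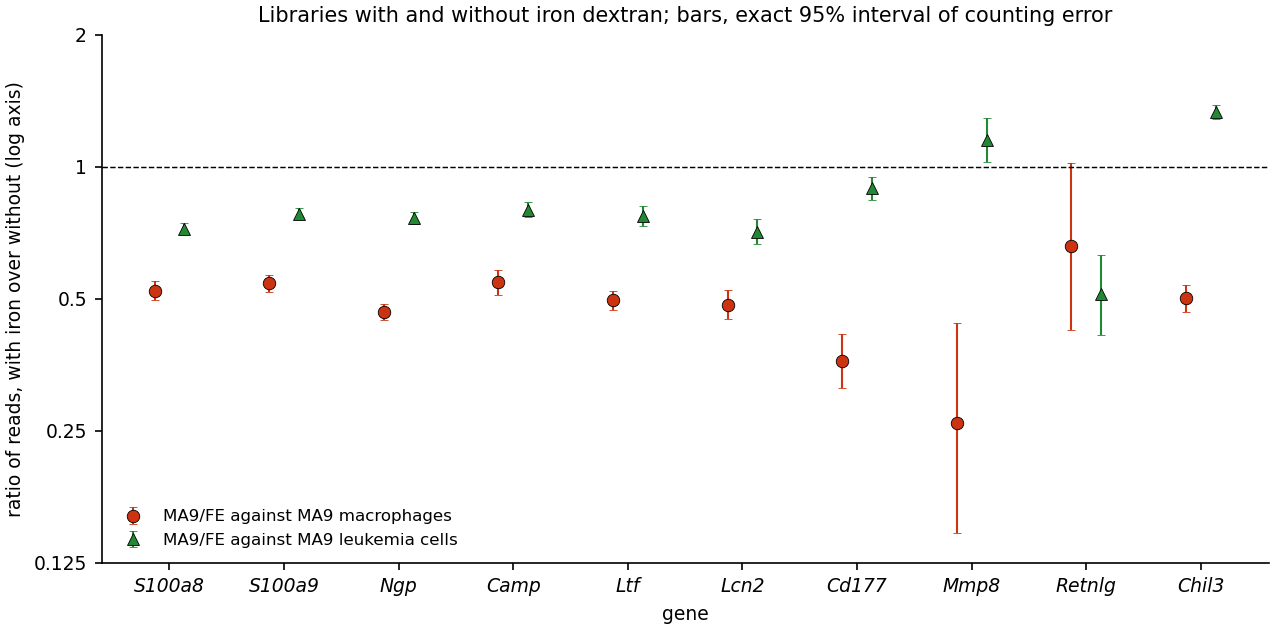
Ratio of scaled reads with iron to without, on a log axis, for each of the 10 genes in macrophages (circles, MA9/FE over MA9) and leukemia cells (triangles, MA9/FE over MA9); bars are exact 95% intervals of counting error and the dashed line marks no difference. In macrophages all 10 ratios lie below 1, from 0.260 to 0.661, and in leukemia cells those of Mmp8 and Chil3 lie above 1.

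In healthy mice all 10 genes stayed at 35 reads or fewer with and without iron. In WT/FE against WT macrophages, only 5 of the 10 passed the minimum of 10 reads (S100a8, S100a9, Ngp, Cd177 and Chil3) and 0 were 2-fold higher or lower on log2(FPKM + 1), beside 0.728% of 16754 genes higher and 0.543% lower. Over all 10 the median log2 fold change was -0.02. Chil3 had 35 against 15 reads, a ratio of 2.70 (1.44 to 5.32), and S100a8 had 2 against 11, a ratio of 0.210 (0.0227 to 0.964). The ratio was 0.946 (0.347 to 2.51) for S100a9, 0.617 (0.227 to 1.55) for Ngp and 0.999 (0.511 to 1.93) for Cd177, so that neither a rise nor a fall could be read for these 3 at this depth. Retnlg had 2 against 5 reads, a ratio of 0.463 (0.0441 to 2.83), Ltf had 4 against 0 reads, and Camp, Lcn2 and Mmp8 had 0 or 1 read in each. Of 17 macrophage markers 5 were 2-fold or more higher in WT/FE than in WT macrophages and 0 lower, with a median log2 fold change of 0.95. The B cell markers had a median of -0.08. The part of these markers in the values of the 10 genes was not tested.

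The genes whose log2(FPKM + 1) was most like the mean of the 10 differed from them in size. Among 10908 genes with at least 100 reads in MA9 macrophages, 29 had a Pearson r of 0.99 or more over the 6 libraries. Mcrip2 (r = 0.9986), the RNA helicase Ddx1, the secretory pathway genes Ssr3 and Calu, and the mitotic genes Ube2c and Cdc20 were among the nearest 10. Mcrip2 had macrophage values of 3.89, 3.65, 10.96 and 8.53 FPKM and leukemia cell values of 12.2 and 11.9 FPKM, a far smaller spread than that of any of the 10. Ube2c went from 5.49 FPKM in WT/FE to 38.6 in MA9/FE leukemia cells. The r values share the same 6 libraries, which fall into low and high ones.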

How the data were processed

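The authors deposited 6 tables of FPKM values per Ensembl gene, 1 library per condition, from Illumina sequencing. The submitters' notes name Bowtie2 2.2.5, RSEM and mm10 without roles, and the annotation is not given in the sources used here. FPKM values were multiplied by exon length (GENCODE M21, GRCm38) to recover whole reads and depth, and 37 genes had no exon length. Library pairs were scaled with TMM-style factors (30% of fold values and 5% of levels trimmed), and differences were taken on log2(FPKM + 1). A gene counted as higher or lower at a fold of at least 2 with at least 10 reads in 1 of the pair. Percents of the leukemia cell level use unscaled FPKM. Ratios of reads have exact binomial 95% intervals and shares have Wilson intervals. With 1 library per condition no test between conditions was made. The steps were tested on simulated data. Motifs were searched in RefSeq windows. Tables were handled with pandas 2.3.3 under Python 3.11.15, intervals came from scipy 1.17.1 with numpy 2.4.6, and plots from matplotlib 3.10.9. Alternatives covered scaling, pseudocount, minimum of reads and an exact test of reads, which compares 2 libraries and not the conditions. The members and lists were chosen with earlier results of these data known. Named from each list were at most 4 genes with the largest difference between MA9 and WT macrophages among those with at least 100 reads. Named besides these were some of the 10 genes nearest in pattern, and Ly6g, Ctsc, Srgn, Chil4 and Prss50. Of 189 list genes 188 were matched by symbol.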

Additional observations from a re-analysis of the deposited data

Results flagged for a closer look

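For Mmp8 and Chil3, iron treatment went in opposite directions in pairs of conditions that both passed the minimum of reads. The difference between conditions was not tested, since each had 1 library. Mmp8 was lower with iron in MA9 macrophages and higher in MA9 leukemia cells, with log2 fold changes of -0.93 and 0.19, a difference of -1.12, macrophages minus leukemia cells. Chil3 was higher with iron in WT macrophages and lower in MA9 macrophages, at 0.63 and -0.98, a difference of 1.61, WT minus MA9. Chil3 was also at -0.98 in MA9 macrophages and at 0.41 in MA9 leukemia cells, a difference of -1.40, macrophages minus leukemia cells. The Mmp8 value in MA9/FE macrophages rests on 18 reads and the Chil3 values in healthy mice on 15 and 35 reads.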

How the results depend on the processing

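With a pseudocount of 0.1 FPKM in place of 1, the median log2 fold change of the 10 genes was 8.74 in MA9 against WT and 7.72 in MA9/FE against WT/FE macrophages, because a smaller pseudocount compresses low values less. In WT/FE against WT macrophages, 2 genes (1 higher, 1 lower) passed a 2-fold difference with a pseudocount of 0.1 and 1 with an exact test of the reads at an adjusted p of 0.01. In MA9/FE against MA9 macrophages, 5 genes rather than 3 were lower by 2-fold with unscaled FPKM, with median-of-ratios factors, with a pseudocount of 0.1 and with the exact test. The other 43 of 49 counts and 40 of 42 medians moved little, and of 280 values of single genes 11 moved. The exact test treats reads as independent and compares the 2 libraries, not the conditions. No paired analysis was possible because each condition has 1 library, and for the same reason no library could be left out. Depth limits the healthy macrophages, in which 4 of the 10 genes in WT and 5 in WT/FE had 3 reads or fewer.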
